A study of Mus musculus with 2 samples.

Results

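The genes of the Wnt pathway were compared between small hepatocytes (SHs) and mature hepatocytes (MHs) of the adult mouse liver. They were chosen by symbol. All genes of the Wnt, Fzd, Rspo, Dkk and Sfrp families were taken, together with 23 named receptors, regulators, signal transducers and transcription factors, which gave 64 of the 43280 symbols counted. Both cell populations were released by collagenase perfusion from the livers of the same C57BL6 mice, whose age is labelled as 20 weeks and is younger in the methods of the study. MHs were the cells that a slow spin brought down, and they were not sorted. SHs were recovered from what stayed afloat and then sorted as CD31(-)CD45(-)EpCAM(-)ICAM-1(+) cells. Percoll was used to take dead cells out of both, and no treatment of the mice is labelled. Cells came from 3 mice, and poly(A) RNA of each population was sequenced as 1 library, so values are compared between 2 libraries and no test between the populations was possible.

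Wnt proteins are lipid-modified by Porcn and carried to the cell surface by Wls, and they act on neighbouring cells through a Frizzled receptor and the co-receptor Lrp5 or Lrp6. Without a ligand, a complex of Axin, Apc and the kinase Gsk3b marks β-catenin for breakdown. With a ligand, β-catenin enters the nucleus and acts with TCF/LEF factors on target genes. R-spondins strengthen the signal by binding Lgr receptors and removing the ubiquitin ligases Rnf43 and Znrf3, which otherwise clear Frizzled from the membrane. In the liver, endothelial cells around the central vein are a known source of Wnt2, Wnt9b and Rspo3, and hepatocytes near that vein express β-catenin targets such as Glul.

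Counted reads came to 16979136 for MHs and 42356444 for SHs. Levels are given as RPM, the reads of a gene divided by the counted reads of its library and multiplied by 1000000, and a level of 3 reads was 0.177 RPM in MHs and 0.0708 RPM in SHs. Ratios are log2 values of SHs over MHs after 0.5 reads were added to each count, with a 95% Clopper-Pearson interval, and intervals and floors cover counting error only. The 8 hepatocyte marker genes, Alb and Hnf4a among them, summed to 76860 RPM in MHs and 81243 RPM in SHs. Alb alone had 55706 and 60855 RPM of these. By gene, the interval lay above 0 for 4 and under 0 for 3, with log2 ratios from -0.19 to 0.13. All 10 endothelial markers were at least 2-fold lower in SHs, where they summed to 4.65 RPM against 90.8 RPM in MHs, and Lyve1 was at 0. The 10 counted macrophage markers summed to 17.9 RPM in MHs and 0.944 RPM in SHs, with Marco at 0 in SHs. Among the 8 of them that reached 10 reads, 7 were lower by 2-fold or more. The 12 stellate cell markers summed to 21.9 and 2.17 RPM, with Lum and Colec11 at 0 in SHs, and all 8 that reached 10 reads were lower by 2-fold or more. The 8 cholangiocyte markers summed to 21.4 and 24.4 RPM, but Krt19 and Krt7 had 1 read each in both libraries.

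Most Wnt pathway genes with enough reads to compare differed little between the libraries, and those that differed were mostly lower in SHs. Of the 64 genes, 32 had at least 10 reads over both libraries, and 9 had no read in either. Of these 32, 4 were at least 2-fold lower in SHs with an interval wholly under 0, namely Lgr5, Axin2, Wnt5a and Wls, and 4.46% of the 15521 genes with at least 10 reads were. Only Tcf7l1 was at least 2-fold higher with an interval above 0, as were 2.00% of all genes. The interval lay wholly under 0 for 13 of the 32, against 15.5% of all genes, and wholly above 0 for 2, Tcf7l1 and Fzd5, against 16.8% of all genes. The ratio itself was under 0 for 27 of the 32, against 48.0% of all genes. The median log2 ratio was -0.17 over the 32 genes and 0.02 over all genes, and it was also -0.17 with Wls, which had no read in SHs, set at its bound. The endothelial, macrophage and stellate cell markers were lower in SHs as well, and their part in these counts was not tested. In bulk RNA, fewer cells of a type and less RNA per cell cannot be told apart.

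**Figure D1:**
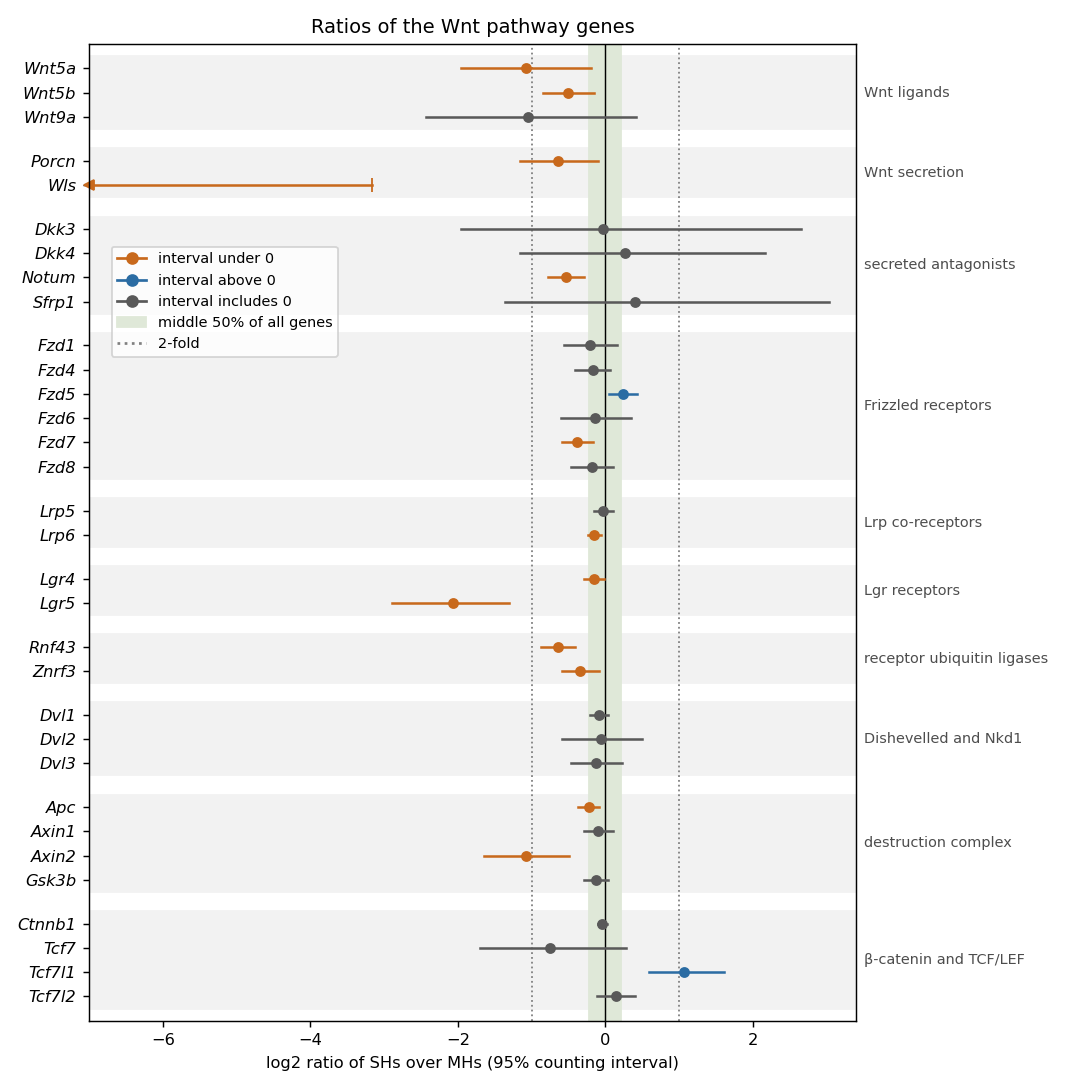
Log2 ratio of SHs over MHs for the 32 Wnt pathway genes with at least 10 reads, grouped by role, with 1 library per population; lines are 95% counting intervals, the shaded band is the middle 50% of all genes with at least 10 reads, and the interval of Wls has no lower end because it had 0 reads in SHs. Lgr5, Axin2, Wnt5a and Wls lie past the 2-fold line on the left, as does Wnt9a with an interval that includes 0, and Tcf7l1 on the right, whereas Ctnnb1, the Lrp and the Dvl genes lie close to 0.

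The DNA before the start of 3 of the genes with a lower level in SHs is shown, because TCF/LEF factors bind the letters CTTTGAA or CTTTGAT and Axin2 is a widely used β-catenin target. The stretches are the 250 bases before a RefSeq gene start (GRCm38.p6, the assembly of mm10), 5′ to 3′ along the gene's strand, with matches to either motif on either strand in capitals. They are given for Axin2, for the cargo receptor gene Wls and for Wnt5b, the Wnt ligand with the most reads.
Axin2 (chr11:108920099-108920348, plus strand): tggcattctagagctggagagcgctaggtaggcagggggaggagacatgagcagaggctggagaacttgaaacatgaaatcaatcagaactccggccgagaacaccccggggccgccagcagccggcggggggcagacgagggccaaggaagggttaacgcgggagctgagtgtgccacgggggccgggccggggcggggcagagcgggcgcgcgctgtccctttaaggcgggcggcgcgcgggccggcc
Wls (chr3:159839400-159839649, plus strand): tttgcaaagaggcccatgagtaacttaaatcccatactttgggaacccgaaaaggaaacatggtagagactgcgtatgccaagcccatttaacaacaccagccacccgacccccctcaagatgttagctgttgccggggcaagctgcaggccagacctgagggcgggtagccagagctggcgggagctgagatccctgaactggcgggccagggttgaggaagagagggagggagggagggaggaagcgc
Wnt5b (chr6:119449387-119449636, minus strand): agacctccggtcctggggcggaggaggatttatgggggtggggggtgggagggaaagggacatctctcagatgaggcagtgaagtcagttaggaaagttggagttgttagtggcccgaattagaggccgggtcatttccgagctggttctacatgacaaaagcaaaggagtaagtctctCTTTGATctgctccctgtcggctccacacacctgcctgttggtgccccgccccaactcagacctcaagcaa
The stretch of Wnt5b, which belongs to 1 of its 3 annotated starts, held CTTTGAT at 71 bases before the start, and the stretches of its other starts, like those of Axin2 and Wls, held neither motif. A match was present in 7.48% of all 32851 promoter stretches, and in 3 of the 52 that belonged to the Wnt pathway genes, those of Dkk1, Wnt11 and Wnt5b. Of the 15 genes whose interval lay on 1 side of 0, 8 had a promoter stretch in the table used. A match describes the letters in this window only.

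Wnt ligands were scarce in both libraries, and the ligand reads were mostly those of Wnt5b and Wnt5a. Of the 19 Wnt genes, 3 had at least 10 reads over both libraries. Wnt5b, a ligand that mostly signals without β-catenin, had 109 reads in MHs and 192 in SHs, whose library was deeper, which is 6.42 and 4.53 RPM. Its log2 ratio was -0.50 (95% interval -0.85 to -0.15), so it was 1.42-fold lower in SHs. Wnt5a, its close relative with the same kind of action, had 22 reads in MHs and 26 in SHs, or 1.3 and 0.614 RPM. It was 2.12-fold lower (1.14 to 3.87), a wide interval from few reads. Stellate cells also express Wnt5a, and their markers summed to 21.9 RPM in MHs and 2.17 RPM in SHs. The endothelial and macrophage markers were lower in SHs too, and the part of these cells in the reads of Wnt5a was not tested. Wnt9a had 9 and 11 reads, or 0.530 and 0.260 RPM, and its log2 ratio could lie anywhere from -2.44 to 0.42.
The other 16 Wnt genes had at most 4 reads in MHs and 6 in SHs, and Wnt1, Wnt3 and Wnt3a had none. Wnt2, the endothelial ligand of the central vein, had 4 and 2 reads, which makes it 4.49-fold lower in SHs with an interval from 0.715 to 55.2. Wnt9b, the other such ligand, had 0 and 3 reads. Wnt4 had 1 and 6 reads. At this depth a difference in these ligands was not detectable. The reads of all 19 genes together were 149 in MHs and 249 in SHs, or 8.78 and 5.88 RPM, a log2 ratio of -0.58 (-0.88 to -0.28).

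The genes that release Wnt ligands were lower in SHs. Wls (chr3:159839672-159938664), which carries every lipidated Wnt to the surface, had 15 reads in MHs and 0 in SHs. Its level was 0.883 RPM in MHs, which is 12.5-fold the level of 3 reads in SHs. The interval of the log2 ratio, which also covers the counting error of MHs, ended at -3.16, or 8.95-fold lower. Porcn (chrX:8193848-8206525), the acyltransferase that lipidates Wnt proteins, had 51 reads in MHs and 82 in SHs, or 3.0 and 1.94 RPM, and was 1.56-fold lower (1.07 to 2.23).
R-spondins had almost no reads. Rspo3, the R-spondin of central vein endothelium, had 8 reads in MHs and 0 in SHs. Its level in MHs was 6.65-fold the level of 3 reads in SHs. The interval of its log2 ratio ended at -2.09, or 4.26-fold lower, but Rspo3 did not reach the minimum of 10 reads over both libraries. Rspo2 had 1 and 0 reads, and Rspo1 and Rspo4 had none in either library. Wls and Rspo3 are expressed by liver endothelial cells, and their reads moved with the endothelial markers, which summed to 90.8 RPM in MHs and 4.65 RPM in SHs. The macrophage markers, with 17.9 and 0.944 RPM, and the stellate cell markers, with 21.9 and 2.17 RPM, were lower in SHs as well. The part of any of these cell types in the reads of Wls and Rspo3 was not tested.

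Of the 9 secreted antagonists, Notum was the only gene with more than 20 reads in either library. Notum (chr11:120653788-120661175), an esterase that removes the lipid from Wnt proteins, had 217 reads in MHs and 373 in SHs, or 12.8 and 8.81 RPM. It was 1.45-fold lower in SHs (1.22 to 1.72). Its exons share 708 bases with the opposite-strand gene Notumos, which had 3 and 11 reads. Dkk and Sfrp proteins block Lrp co-receptors or bind Wnt directly. Dkk4 had 5 reads in MHs and 16 in SHs, or 0.294 and 0.378 RPM. Dkk3 had 3 and 8 reads (0.177 and 0.189 RPM), and Sfrp1 had 3 and 11 (0.177 and 0.260 RPM). The intervals of these 3 genes included 0, so no difference was detectable. Dkk1 had no read, and Dkk2, Sfrp2, Sfrp4 and Sfrp5 had 0 reads in MHs and at most 3 in SHs.

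Frizzled receptors were expressed at similar levels by both populations, and Fzd5 and Fzd7 moved in opposite directions. Of the 10 genes, 6 had at least 10 reads, and together the family had 65.0 RPM in MHs and 61.1 RPM in SHs, with an interval of the log2 ratio from -0.19 to 0.01. Fzd5 (chr1:64730558-64737751), a receptor for several Wnt ligands, had 309 reads in MHs and 910 in SHs, or 18.2 and 21.5 RPM. It was 1.18-fold higher in SHs (1.04 to 1.35), and 1233 of its exon bases are shared with an opposite-strand gene model that was not counted. Fzd7 (chr1:59482424-59486955), a receptor known for its role in intestinal stem cells, had 277 and 531 reads, or 16.3 and 12.5 RPM. It was 1.30-fold lower (1.12 to 1.51), which is less than 2-fold, like the change of Fzd5.
Fzd4, the receptor of Norrin in retinal vessels, had 214 reads in MHs and 474 in SHs, or 12.6 and 11.2 RPM. Fzd8 had 152 and 334 reads (8.95 and 7.89 RPM), and Fzd1 had 96 and 208 (5.65 and 4.91 RPM). Fzd6, a receptor of planar polarity, had 56 and 127 reads (3.30 and 3.0 RPM). The intervals of these 4 included 0, and their log2 ratios lay between -0.21 and -0.14. Fzd9 and Fzd10 had no read, Fzd2 had 0 and 1, and Fzd3 had 0 and 2.

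The co-receptors were among the most abundant pathway genes and nearly equal. Lrp6 (chr6:134446476-134566965) had 1380 reads in MHs and 3103 in SHs, or 81.3 and 73.3 RPM, and was 1.11-fold lower in SHs (1.04 to 1.18). Lrp5 had 683 and 1668 reads, or 40.2 and 39.4 RPM, with a log2 ratio of -0.03 (-0.16 to 0.10). The interval bounds a difference in Lrp5 to well under 2-fold for these libraries.
The R-spondin receptors behaved differently from each other. Lgr5 (chr10:115450311-115587780), the receptor gene that marks stem cells in the intestine and pericentral hepatocytes in the liver, had 39 reads in MHs and 23 in SHs. These are 2.30 and 0.543 RPM, a 4.19-fold lower level in SHs (2.46 to 7.42). Lgr4 (chr2:109917647-110014257), which is expressed across the liver lobule, had 631 and 1412 reads, or 37.2 and 33.3 RPM. The log2 ratio of Lgr4 was -0.16 (-0.29 to -0.02), and its interval included 0 when the totals left out the 10 genes with the most reads. The intervals of Lgr5 and Lgr4 did not overlap. Lgr6 had no read.

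Both genes of the ubiquitin ligases that clear Frizzled from the membrane were lower in SHs. Rnf43 (chr11:87662722-87735539) had 253 reads in MHs and 405 in SHs, or 14.9 and 9.56 RPM, and was 1.56-fold lower (1.33 to 1.83). Znrf3 (chr11:5276324-5444847) had 204 and 401 reads, or 12 and 9.47 RPM, and was 1.27-fold lower (1.07 to 1.51). Their intervals overlapped, and summed they had 26.9 RPM in MHs and 19 RPM in SHs.

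The 3 Dvl genes, which encode the Dishevelled proteins that pass the signal from Frizzled to Axin, showed no difference beyond counting error. Dvl1 had 813 reads in MHs and 1914 in SHs, or 47.9 and 45.2 RPM, with an interval of the log2 ratio from -0.20 to 0.04. Dvl3 had 100 and 229 reads, or 5.89 and 5.41 RPM. Dvl2 had 42 and 101 reads (2.47 and 2.38 RPM), but its exons share 1151 bases with Acadvl on the opposite strand, which had 5983 and 14954 reads, so the Dvl2 reads are uncertain where the counting did not use strand. Nkd1, an inhibitor of Dishevelled, had 4 reads in each library, too few for a ratio.

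Within the destruction complex, Axin2 was lower. The ratios of the other components were at most 1.17-fold lower, with intervals that reached 1.29-fold. Axin2 (chr11:108920349-108950783), a scaffold that is itself induced by β-catenin and whose promoter stretch is printed above, had 49 reads in MHs and 58 in SHs. These are 2.89 and 1.37 RPM, a 2.11-fold lower level in SHs (1.41 to 3.14). Axin1 (chr17:26138688-26195811), the constitutive scaffold, had 301 and 704 reads, or 17.7 and 16.6 RPM, a log2 ratio that could lie between -0.29 and 0.11.
Apc, the tumour suppressor that binds β-catenin in the complex, had 609 reads in MHs and 1298 in SHs, or 35.9 and 30.6 RPM. It was 1.17-fold lower (1.06 to 1.29). Gsk3b, the kinase, had 437 and 999 reads, or 25.7 and 23.6 RPM, with a log2 ratio of -0.13 (-0.29 to 0.04). So Apc was slightly lower in SHs, and no difference was detectable for Gsk3b.

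The RNA level of Ctnnb1, the gene of β-catenin, did not differ detectably, and of the TCF genes Tcf7l1 was higher in SHs. The β-catenin protein was not measured. Ctnnb1 (chr9:120929216-120960507) had 3452 reads in MHs and 8372 in SHs, or 203 and 198 RPM, with a log2 ratio of -0.04 (-0.10 to 0.02). Tcf7l1 (chr6:72626378-72789254), the factor of the family known mostly as a repressor of targets, had 40 and 211 reads, or 2.36 and 4.98 RPM. It was 2.09-fold higher in SHs (1.5 to 3.04), the highest ratio among the 32 genes. Its exons share 179 bases with the opposite-strand gene Gm15401, which had 14 and 43 reads.
Tcf7l2, the TCF gene with the most reads here, had 164 reads in MHs and 451 in SHs, or 9.66 and 10.6 RPM. Its log2 ratio was 0.14 (-0.12 to 0.41), so no difference was detectable. Tcf7 had 16 and 24 reads (0.942 and 0.567 RPM), with an interval from -1.71 to 0.28. Lef1 had 1 read in each library.

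**Figure D2:**
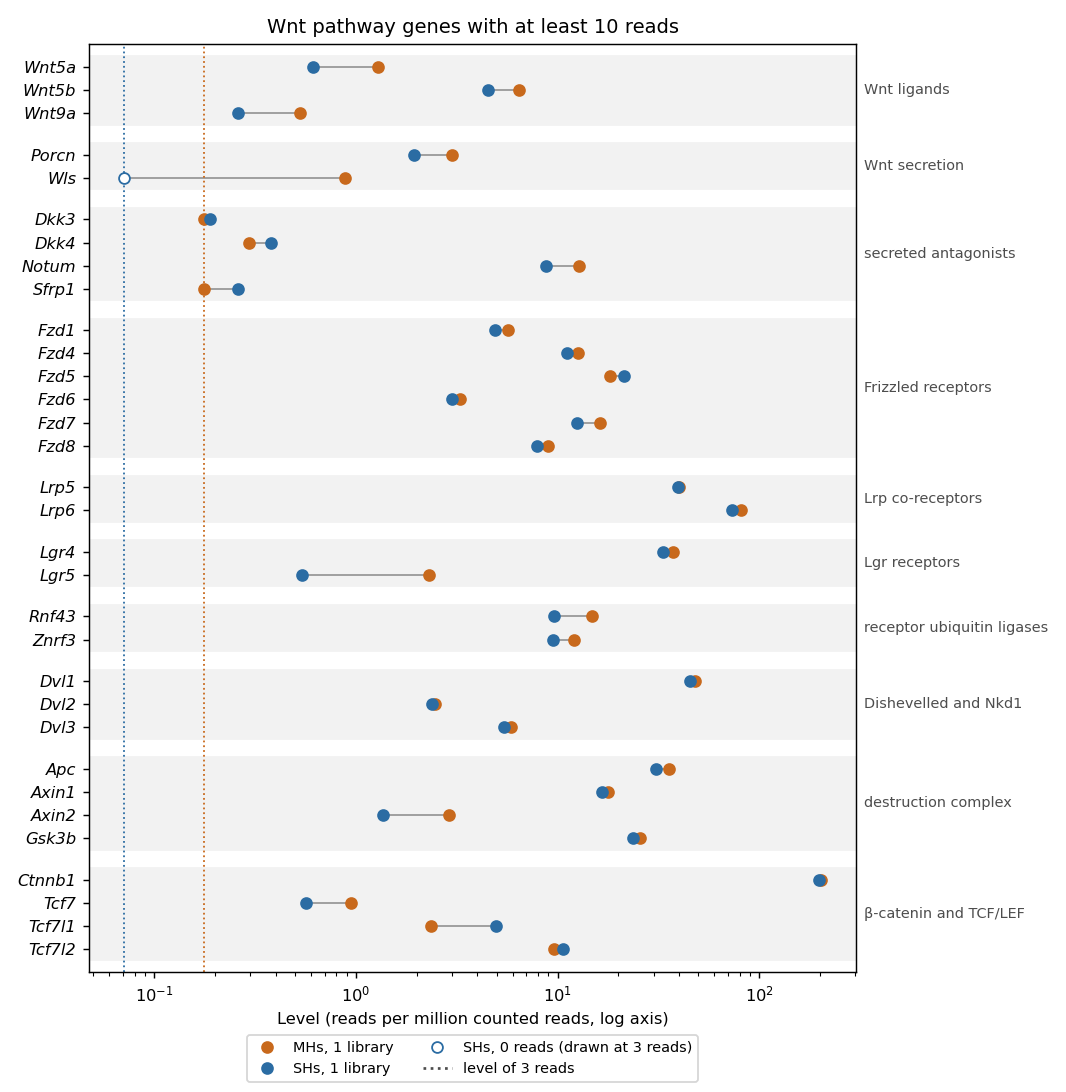
Level in RPM (log axis) of each Wnt pathway gene with at least 10 reads in the single library of MHs (orange) and of SHs (blue), grouped by role; dotted lines mark the level of 3 reads in each library. Ctnnb1 lies near 200 RPM in both (203 and 198), and Lgr5 falls from 2.30 to 0.543 RPM. Wls had no read in SHs and is drawn at the level of 3 reads.

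Several of these genes are themselves known targets of β-catenin and act back on the pathway. The group of Axin2, Lgr5, Rnf43, Znrf3, Notum, Nkd1, Tcf7 and Lef1 was put together after the values were seen. Its direction and its contrast with the other members depend on this choice and are no independent evidence. Of its 8 genes, 6 had at least 10 reads, and the interval lay under 0 for 5 of them, against 15.5% of all genes. Tcf7 was the exception, with a log2 ratio of -0.75 whose interval included 0. The log2 ratios of these 6 ran from -2.07 for Lgr5 to -0.35 for Znrf3, with a median of -0.69. Of the 26 others with at least 10 reads, 8 had an interval under 0, 2 above 0 and 16 on both sides, and their median log2 ratio was -0.14.

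Shares within a family do not depend on how the libraries were scaled. Axin2 took 14% of the Axin reads in MHs (95% interval 10.5 to 18.1) and 7.61% in SHs (5.83 to 9.73). Lgr5 took 5.82% of the Lgr reads in MHs (4.17 to 7.87) and 1.60% in SHs (1.02 to 2.40). For both genes the intervals of the populations did not overlap. Tcf7l1 took 18.1% of the TCF/LEF reads in MHs (13.3 to 23.8) and 30.7% in SHs (27.3 to 34.3), while the share of Tcf7l2 was 74.2% in MHs and 65.6% in SHs, with overlapping intervals. Fzd5 took 28.0% of the Fzd reads in MHs (25.4 to 30.7) and 35.2% in SHs (33.3 to 37.1). Fzd7 took 25.1% (22.6 to 27.8) and 20.5% (19 to 22.1). These are shares of reads and are not corrected for the length of the genes. The shares of Dvl1 among Dvl reads, 85.1% and 85.3%, and of Wnt5b among Wnt reads, 73.2% and 77.1%, had overlapping intervals, as had that of Rnf43 among Rnf43 and Znrf3 reads, with 55.4% and 50.2%.

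**Figure D3:**
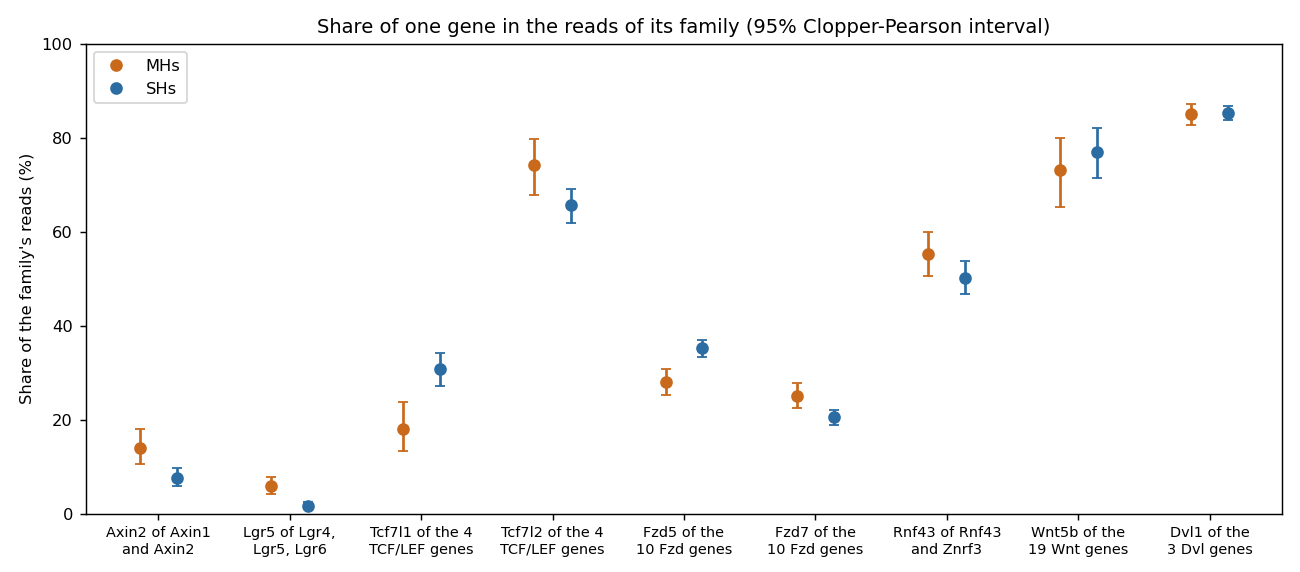
Share (%) that a gene took of the reads of its family in MHs (orange) and SHs (blue), 1 library each, with 95% Clopper-Pearson intervals of counting error. Axin2, Lgr5 and Fzd7 hold smaller shares in SHs, Tcf7l1 and Fzd5 larger ones, and the share of Dvl1 stays at 85.1% and 85.3%.

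Levels of different genes were compared per length, as RPM per kilobase of exon (RPKM), with exon lengths from GENCODE M21. Ctnnb1 had 39.2 RPKM in MHs and 38.1 RPKM in SHs and was the highest of the 32 genes in both. Dvl1 was next with 9.58 and 9.04 RPKM, and its interval did not meet that of any other gene. Lgr4 had 6.32 RPKM in MHs and 5.67 in SHs, and Lrp6 had 5.94 and 5.36 RPKM. The intervals of Lgr4 and Lrp6 overlapped in both libraries, so their order could not be told. Notum came next in MHs, with 5.31 RPKM, and after Axin1 and Lrp5 in SHs, with 3.66 RPKM. Its interval overlapped those of Lgr4, Lrp6 and Axin1 in MHs and those of Axin1, Lrp5 and Fzd5 in SHs, so its place among them could not be told. Among the Frizzled genes, Fzd7 had 3.60 RPKM (3.19 to 4.05) in MHs and Fzd5 2.63 RPKM (2.35 to 2.94). In SHs Fzd5 had 3.11 RPKM (2.91 to 3.32) and Fzd7 2.77 RPKM (2.54 to 3.01). Fzd7 was thus the higher per length in MHs, and in SHs their intervals overlapped.
In MHs, Tcf7l2 had 1.10 RPKM (0.939 to 1.28) and Tcf7l1 0.60 RPKM (0.429 to 0.818), intervals that did not overlap. In SHs these genes had 1.21 and 1.27 RPKM, with overlapping intervals. Axin2 stood at 0.524 RPKM in MHs and 0.249 in SHs, far under Axin1 with 4.63 and 4.34. Lgr5 had 0.224 RPKM in MHs and 0.0529 in SHs. Among the ligands, Wnt5b reached 2.42 RPKM in MHs and 1.71 in SHs, and Wnt5a 0.166 and 0.0785. Wnt5b was therefore the ligand gene with the highest level per length in both libraries.

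Outside the chosen genes, known targets of β-catenin in the liver were much lower in SHs. Of 18 such genes, 17 had at least 10 reads, and of these 13 fell by 2-fold or more in SHs, against 4.46% of all genes. None was at least 2-fold higher, against 2.00% of all genes, and the median log2 ratio was -1.74, against 0.02 over all genes. The 13 were Glul, Cyp2e1, Cyp1a2, Oat, Slc1a2, Slc1a4, Lect2, Rhbg, Tbx3, Gulo, Rgn, Cldn2 and Slc13a3. The targets with the most reads were Cyp2e1, a cytochrome P450 of ethanol metabolism, and Cyp27a1, a sterol hydroxylase, with log2 ratios of -1.89 and -0.58. Glul, which encodes glutamine synthetase, had 150 RPM in MHs and 23.4 RPM in SHs. Tbx3, a T-box factor, had 14.6 and 3.99 RPM, and Slc1a2, a glutamate transporter gene, had 29.8 and 1.58 RPM. Car14 and Myc, with log2 ratios of -0.06 and 0.09, had intervals that included 0. The list was written with earlier results of these data known, so its direction is no independent evidence.
Among 66 further counted genes of the pathway, 45 had at least 10 reads, with a median log2 ratio of 0.05. Of these, 1 was at least 2-fold lower and 1 at least 2-fold higher, against 4.46% and 2.00% of all genes. An interval under 0 was found for 7 of the 45, close to the 15.5% of all genes. It lay above 0 for 14 of the 45, a larger share than the 16.8% of all genes. The gene that was lower was Gpr124, a Wnt7 co-receptor component of brain endothelium, with 19 reads in MHs and 2 in SHs and a log2 ratio of -4.28 (-7.71 to -2.52). It moved with the endothelial, macrophage and stellate cell markers given above, whose part in it was not tested. Its partner Reck had 26 and 126 reads and a log2 ratio of 0.94 (0.34 to 1.63), and Ptk7, a co-receptor of planar polarity, had 3 and 36 reads, a log2 ratio of 2.06 (0.60 to 4.61).
The other receptor genes with the most reads were Gpc4, a glypican gene with 37.1 and 33.1 RPM, and Ryk, a Wnt-binding receptor with 19.9 and 21.2 RPM. Among the other destruction complex and kinase genes, 15 had at least 10 reads. Of these 15, 5 had an interval above 0 and 3 under 0, against 16.8% and 15.5% of all genes. None of the 15 was at least 2-fold lower or higher, against 4.46% and 2.00% of all genes. Ppp2ca, the catalytic subunit of a phosphatase that acts on the complex, and Csnk1g2, a casein kinase that phosphorylates Lrp6, had the most reads of them, with log2 ratios of 0.04 and 0.14. Of 14 nuclear cofactor genes with at least 10 reads, 4 had an interval above 0 and 1 under 0, against 16.8% and 15.5% of all genes. Aes, a short Groucho-type corepressor, had 357 RPM in MHs and 418 RPM in SHs, and Smarca4, a chromatin remodeller, was next in reads in both libraries, with a log2 ratio of 0.20. Ctnnbip1, which keeps β-catenin from TCF factors, had 11.6 RPM in MHs and 21.1 RPM in SHs, a log2 ratio of 0.86 (0.64 to 1.09). Of 13 other inhibitor genes, 1 had at least 10 reads, Kremen1 with 75 and 151.

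**Figure D4:**
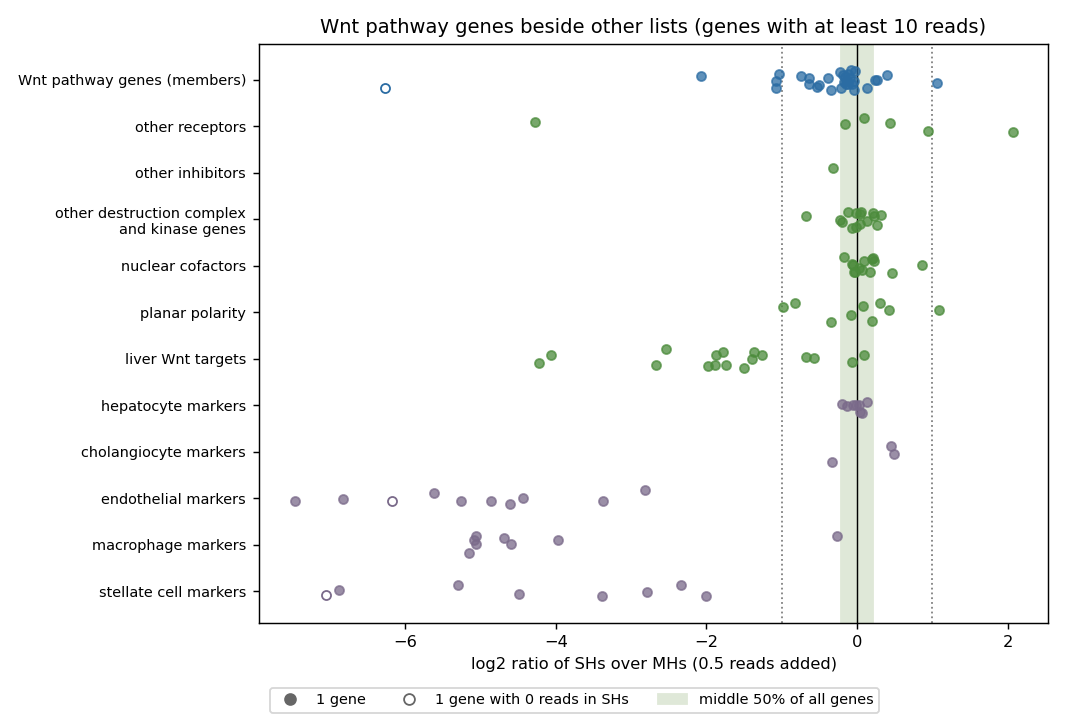
Log2 ratio of SHs over MHs (0.5 reads added) of each gene with at least 10 reads, by list, with 1 library per population; open circles are genes with 0 reads in SHs, whose position depends on the added reads, and the band is the middle 50% of all genes. Most Wnt pathway genes and cofactors lie near 0 with medians of -0.17 and 0.08, whereas the liver Wnt targets have a median of -1.74 and all 10 endothelial markers lie at or under -2.82.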

How the data were processed

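RNA-seq data of 1 library of SHs and 1 library of MHs were analysed. The deposited values are whole-number counts of reads for each gene symbol, and the authors did not normalize them. Per the methods, reads were trimmed and aligned to mm10 in CLC Genomics Workbench. The counter and annotation behind the deposited counts, and the use of strand, are not given in the sources used here, so reads of paralogs and overlapping genes are uncertain. Counts were scaled to RPM by the library total in Python 3.11.15 (numpy 2.4.6, pandas 2.3.3, scipy 1.17.1). All 64 symbols were found in GENCODE M21, which gave coordinates and exon lengths.

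A gene was called lower or higher at a 2-fold change with its interval on that side of 0, if it had at least 10 reads over both libraries. The members and lists were chosen with earlier results of these data known. Reads and ratios were given for members with at least 10 reads, others by counts and ranges. Of the further lists, the 2 genes with the most reads over both libraries and the called genes were named. Wnt2, Wnt4, Wnt9b, Rspo2, Rspo3, Nkd1, Lef1, Car14, Myc, Reck, Ctnnbip1, Prickle1 and Vangl2 were named after their values were seen. Calls were also made with scaling by edgeR 4.0.16 TMM and DESeq2 1.42.0 size factors (R 4.3.3), by library totals that left out the 10 most abundant genes, with 2 added reads, and with other read minimums and fold thresholds. The calculation was tested on simulated counts.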

Additional observations from a re-analysis of the deposited data

How the results depend on the processing

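No paired analysis was possible because each group had a single library. Under the 3 other scalings, which shifted all ratios by 0.01 to 0.03 on the log2 scale, 4 members were at least 2-fold lower and 1 at least 2-fold higher, as in the main scaling, and the median lay between -0.17 and -0.13. An interval wholly under 0 was found for 12 to 13 members, since that of Lgr4 included 0 when the totals left out the 10 most abundant genes. The ratio of Lrp5 ran from -0.03 to 0.00 over the scalings. Without a read minimum 5 members were at least 2-fold lower, and with a mean of at least 0.5 RPM, 3 were. With at least 50 reads, 2 members were at least 2-fold lower, since Wnt5a and Wls did not reach that minimum. At a 1.5-fold threshold 6 were lower. At a 4-fold threshold, 2 were lower, Lgr5 and Wls, and 0 higher. Shares of all genes were not computed under the other scalings, read minimums and thresholds, so these counts have no background beside them. None of the 32 single ratios changed sign with 2 added reads. Depth limits the ligands, R-spondins and antagonists, most of which had fewer than 10 reads.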

Other observations

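Genes of planar cell polarity, the branch of Frizzled signalling that orients cells without β-catenin, are among the 66 further genes counted above. Of 12 such genes, 9 had at least 10 reads. Of these 9, 2 had an interval above 0 and 1 under 0, against 16.8% and 15.5% of all genes. The median log2 ratio of the 9 was 0.08. Celsr1, an adhesion receptor that sets polarity between neighbouring cells, had 36.4 RPM in MHs and 48.9 RPM in SHs, so that its log2 ratio was 0.43 (95% interval 0.30 to 0.56). Daam1, a formin downstream of Dishevelled, had 47.5 and 45.0 RPM, with an interval that included 0. Prickle1, a cytoplasmic polarity protein gene, had 26 and 33 reads and its log2 ratio was -0.98 (-1.76 to -0.17). Vangl2 had 3 and 18 reads, with an interval from -0.51 to 3.67. There was no replicate of either population.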
